A study of Mus musculus with 23 samples.

Results

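AU-rich element binding mRNA regulators are proteins that sit on the 3′ ends of short-lived transcripts and decide how long these persist and how well they are translated. The group described here was defined by gene name and not by a cut on measured values, although its members were chosen with earlier results of these data known. It holds 10 genes (Zfp36, Zfp36l1, Zfp36l2, Elavl1, Hnrnpd, Khsrp, Tia1, Tial1, Zc3h12a and Rc3h1) of the 26014 genes represented by a probe with a RefSeq or GenBank accession. All 10 were on the array, with 15 probes, since Elavl1, Khsrp, Tia1, Tial1 and Rc3h1 had 2 probes each.

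Transcripts of cytokines, chemokines and growth regulators carry AU-rich elements and stem-loops in their 3′ ends. Tristetraprolin (TTP, encoded by Zfp36) and its relatives encoded by Zfp36l1 and Zfp36l2 bind the AU-rich motif through zinc fingers and recruit the enzymes that remove the poly(A) tail, whereas HuR (Elavl1) binds similar motifs and stabilizes the transcript. In macrophages the kinase MK2 phosphorylates TTP downstream of p38 and thereby lowers its decay activity, and TTP controls its own transcript as well. Regnase-1 (Zc3h12a), an endonuclease, and roquin-1 (Rc3h1) act on stem-loops.

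Macrophages were grown for 9 days with 10 ng/ml M-CSF from bone marrow of male C57BL/6 mice aged 10 to 14 weeks, which were wild-type (wt), deficient in MK2 (MK2-/-) or deficient in both MK2 and MK3 (MK2/3-/-). The bone marrow-derived macrophages (BMDM) received 100 ng/ml LPS, a bacterial cell wall component, or culture medium for 120 min. RNA of each sample was hybridized to its own array, which gave 4 arrays in each of 5 groups (wt medium, wt LPS, MK2-/- LPS, MK2/3-/- medium and MK2/3-/- LPS) and 3 in MK2-/- medium. MK2 and MK3 are lacking in all cells of these mice from development onwards, so a cell culture effect cannot be told apart from one acquired in the animal. Levels are quantile-normalized log2 signals of a probe, differences are log2 differences between group means ± SE, and a gene was called at a limma p under 0.05 after Benjamini-Hochberg adjustment across the 26014 genes. Levels of different probes are not on a shared scale and were not compared with each other. In the text, values of a group follow the order of its replicates.

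The genotype labels were borne out by the targeted genes. Mapkapk2, which encodes MK2, lay at 14.77 ± 0.49 in LPS-treated wt BMDM (SD, n = 4), at 11.96 ± 0.28 in MK2-/- BMDM (n = 4) and at 11.76 ± 0.34 in MK2/3-/- BMDM (n = 4), and Mapkapk3, which encodes MK3, lay at 14.01 ± 0.24, 13.98 ± 0.14 and 10.70 ± 0.26 in the same order. In medium, Mapkapk2 lay at 12.22, 8.91 and 8.72. Its signal was thus reduced in the knockouts but stayed well above background on all their arrays, and it rose with LPS. Every measured macrophage marker (7 of 7, among them Adgre1, Csf1r and Cd14) was well above background on all 23 arrays, with summed levels between 19.1 and 19.9 on the log2 scale. Of markers of other cells, Cd3d, Hbb-bt and Ms4a2 were above background on none of the arrays, while the summed level of the 4 fibroblast markers ranged widely within every group (9.02 to 16.7 overall). The 4 T cell markers, of which Cd3e and Lck were above background throughout, summed to between 9.88 and 11.2 on medium arrays and between 10.3 and 13.5 on LPS arrays. For the 4 dendritic cell markers (Flt3 and Itgax above background throughout) the sums were 10.8 to 13.6 and 11.6 to 13.9, and the part of these cells in the results was not tested. Probes well above background made up 56.2% to 60.8% on wt arrays, 49.6% to 55.7% on MK2-/- arrays and 47.5% to 69.1% on MK2/3-/- arrays, with MK2/3-/- medium replicates 1 (47.5%) and 2 (69.1%) standing apart. Each genotype was hybridized on a slide of its own, and medium and LPS arrays lay in different rows of the slide, so that genotype and slide, and treatment and row, cannot be told apart. In bulk RNA, fewer cells that express a gene and less RNA per cell cannot be told apart either.

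Upstream sequences are shown for the 3 members whose transcripts stood for the different patterns, Zc3h12a with the steepest rise of the members, Zfp36 with a moderate rise, and Zfp36l1 with a fall. They are the 250 bases before the annotated start site in RefSeq (build GRCm38.p6), written 5′ to 3′ on the gene's own strand, with motif matches in capitals. Zc3h12a lies at chr4:125127882-125128131 (minus strand), Zfp36 at chr7:28379229-28379478 (minus strand) and Zfp36l1 at chr12:80113014-80113263 (minus strand).
Zc3h12a: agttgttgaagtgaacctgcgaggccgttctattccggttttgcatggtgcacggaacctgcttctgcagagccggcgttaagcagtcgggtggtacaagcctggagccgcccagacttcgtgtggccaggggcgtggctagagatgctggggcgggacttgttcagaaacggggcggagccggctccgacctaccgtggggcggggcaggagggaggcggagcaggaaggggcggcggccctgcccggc
Zfp36: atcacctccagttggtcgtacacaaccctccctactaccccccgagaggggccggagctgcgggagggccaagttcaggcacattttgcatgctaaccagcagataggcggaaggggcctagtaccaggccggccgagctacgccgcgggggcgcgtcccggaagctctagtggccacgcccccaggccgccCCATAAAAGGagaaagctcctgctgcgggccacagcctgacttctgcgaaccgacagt
Zfp36l1: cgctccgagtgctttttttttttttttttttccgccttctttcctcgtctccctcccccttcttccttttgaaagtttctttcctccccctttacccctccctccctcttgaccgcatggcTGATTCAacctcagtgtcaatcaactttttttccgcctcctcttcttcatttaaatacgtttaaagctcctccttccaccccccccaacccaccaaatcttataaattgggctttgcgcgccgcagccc
In the full windows of 300 bases, which run from 250 bases before to 50 bases after the start, the kappa B site, the AP-1 site (TGANTCA), the CRE, the ISRE core and the CArG box of serum response factor were searched on both strands. The capitals of Zfp36 mark a CArG box that begins 58 bases before the start, a motif found in 1.63% of all 32851 windows, and those of Zfp36l1 mark an AP-1 site 129 bases before the start (7.81% of all windows). The Zc3h12a window held none of the 5 motifs. Of the other members, Rc3h1 had an AP-1 site 133 bases before the start and Hnrnpd a CArG box at position 1, and no member had a kappa B site (4.51% of all windows), a CRE (1.79%) or an ISRE core (3.44%) in its windows. Windows were found for 9 of the 10 members, Zfp36l2 being the exception.

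LPS changed most members, in both directions. In wt BMDM, 4 of 10 were called higher (Zfp36, Hnrnpd, Zc3h12a and Rc3h1) and 2 lower (Zfp36l2 and Tia1), beside 8.26% and 8.89% of all genes. In MK2-/- BMDM, 4 were higher and 2 lower (Zfp36l1 and Zfp36l2), beside 8.48% and 10.1% of all genes, and in MK2/3-/- BMDM 4 were higher and 3 lower (Zfp36l1, Zfp36l2 and Tia1), beside 11.9% and 12.9%. The same 4 genes were called higher in every genotype. In wt, MK2-/- and MK2/3-/- BMDM, all LPS arrays lay above all medium arrays for 5, 4 and 5 members, and below them for 2, 3 and 3. Of the 25902 genes with a value on every array, 11.4%, 16.1% and 11.8% lay above in this way, and 11.5%, 16.7% and 14.5% below. The median log2 difference of the 10 members was 0.38, -0.03 and 0.23, compared with 0.01, -0.01 and -0.02 over all genes. Where a gene had several probes, the choice fell on that with the strongest wt induction, which favours upward differences in wt BMDM for the 5 members with 2 probes. For these members it also favours knockout levels below wt after LPS, and LPS responses of the knockouts below that of wt.

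**Figure D1:**
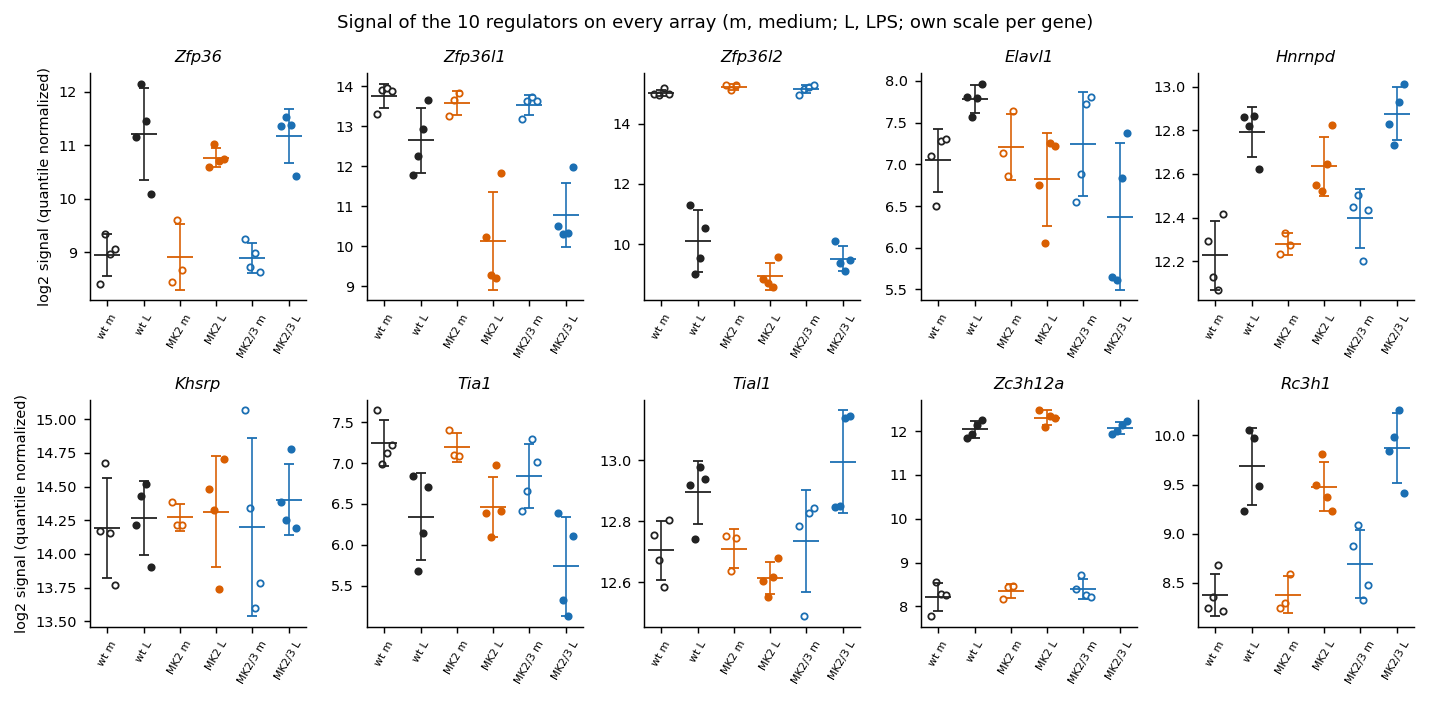
Quantile-normalized log2 signal of the 10 members on each of the 23 arrays, by genotype (black wt, orange MK2-/-, blue MK2/3-/-) and treatment (open medium, filled LPS), with the mean and SD of each group as bars. Zfp36, Zc3h12a and Rc3h1 lie higher after LPS in every genotype, and Zfp36l2 falls from about 15 to between 8.58 and 11.32.

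Zfp36 (NM_011756, GRCm38.p6 chr7:28376784-28379228, minus strand) encodes TTP, the AU-rich binder that starts decay of transcripts such as Tnf. Its log2 signal in wt BMDM was 8.41, 9.35, 8.96 and 9.06 in medium and 11.15, 12.16, 11.45 and 10.09 after LPS. MK2-/- BMDM had 8.45, 9.61 and 8.67 in medium and 10.60, 11.03, 10.70 and 10.75 after LPS. In MK2/3-/- BMDM it was 9.25, 8.73, 8.98 and 8.63 in medium and 11.35, 11.53, 11.38 and 10.42 after LPS. Every LPS array was above every medium array of its genotype. The transcript rose 4.81-fold in wt BMDM (log2 2.27 ± 0.35, adjusted p = 0.000109, limma), 3.63-fold in MK2-/- BMDM (1.86 ± 0.38, adjusted p = 0.00147, limma) and 4.84-fold in MK2/3-/- BMDM (2.27 ± 0.35, adjusted p = 6.7e-05, limma). After LPS the genotypes overlapped, with a difference from wt of -0.44 in MK2-/- (95% interval -1.18 to 0.30, adjusted p = 0.803, limma) and -0.04 in MK2/3-/- (-0.78 to 0.70). Replicate 4 was the lowest LPS array in wt and in MK2/3-/- BMDM, and on linear values the methods' test did not call the rise in wt (adjusted p = 0.128).

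Zfp36l1 (NM_007564, chr12:80107760-80113013, minus strand), a TTP relative with the same zinc finger fold, went the other way. In wt BMDM it lay at 13.30, 13.91, 13.95 and 13.88 in medium and at 11.79, 12.25, 12.92 and 13.65 after LPS, where the highest LPS value exceeded the lowest medium value. MK2-/- BMDM had 13.25, 13.67 and 13.84 in medium and 10.23, 9.28, 9.20 and 11.83 after LPS, and MK2/3-/- BMDM had 13.18, 13.64, 13.73 and 13.63 in medium and 10.51, 10.31, 10.33 and 11.98 after LPS. In both knockouts all LPS arrays were below all medium arrays. The transcript fell to 9.12% of its medium level in MK2-/- BMDM (log2 -3.45 ± 0.54, adjusted p = 8.96e-05, limma) and to 14.7% in MK2/3-/- BMDM (-2.76 ± 0.50, adjusted p = 0.000293, limma), whereas the difference of -1.11 ± 0.50 in wt BMDM did not pass (adjusted p = 0.153, limma). The interaction of genotype and treatment, a direct test of unequal responses, was -2.35 ± 0.73 for MK2-/- against wt (unadjusted p = 0.00454, adjusted p = 1, limma) and -1.65 ± 0.70 for MK2/3-/- against wt (unadjusted p = 0.0291, adjusted p = 1, limma).

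After LPS, Zfp36l1 differed from wt by -2.52 ± 0.50 in MK2-/- BMDM (95% interval -3.56 to -1.48, adjusted p = 0.115, limma; exact permutation p = 0.0571) and by -1.87 ± 0.50 in MK2/3-/- BMDM (-2.91 to -0.83, adjusted p = 0.0629, limma; exact permutation p = 0.0571). Neither was called, and the highest knockout array in each case (11.83 and 11.98, both replicate 4) lay above the lowest wt array (11.79). Without MK2-/- LPS replicate 4 the first difference was -3.09 (adjusted p = 0.0045, limma) and without MK2/3-/- LPS replicate 4 the second was -2.27 (adjusted p = 0.0188, limma), and both were then called. With the culture as a random block neither was called (adjusted p = 0.102 and 0.0636, limma). With the culture number as a block across genotypes both were (adjusted p = 0.0131 and 0.0144, limma), although a number shared between genotypes stands for different animals and no source ties them. The second was also called when genes were limited to probes well above background in 1 whole group (adjusted p = 0.0373, limma). Leaving out any other LPS array of the groups compared left adjusted p values above 0.05. MK2/3-/- exceeded MK2-/- BMDM by 0.65 ± 0.50 (adjusted p = 0.802, limma). Detection shares of the same LPS arrays were 56.2% to 60.8% in wt, 49.6% to 52.5% in MK2-/- and 48.5% to 55.4% in MK2/3-/- BMDM, and their part in this difference was not tested.

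Medium and LPS arrays of a genotype came from shared cultures, which allowed the change to be read culture by culture. For Zfp36l1 the log2 change with LPS was -1.51, -1.66, -1.03 and -0.23 in the wt cultures, -3.03, -4.39 and -2.01 in the MK2-/- cultures that had both arrays, and -2.67, -3.33, -3.40 and -1.65 in the MK2/3-/- cultures. The last value in each genotype is culture 4, a number that names different animals in each genotype, and it was the smallest fall of its genotype. All MK2-/- and all but 1 of the MK2/3-/- cultures fell by more than any wt culture, the exception being MK2/3-/- culture 4, whose fall of -1.65 was just short of that of wt culture 2 (-1.66). The share of all genes with such a separation of cultures is not given here, and the interactions for Zfp36l1 were not called.

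**Figure D2:**
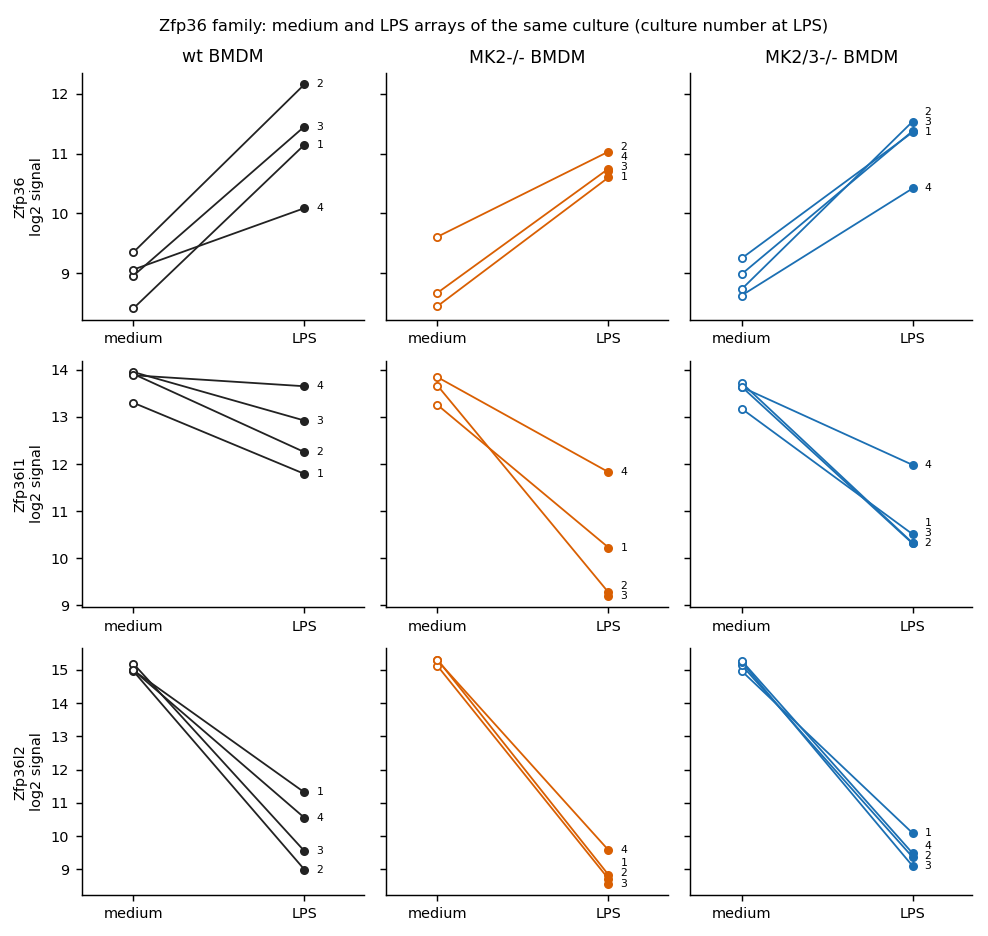
Log2 signal in medium and after LPS for Zfp36, Zfp36l1 and Zfp36l2 by genotype, with lines joining the arrays of a culture and the culture number beside the LPS array. Zfp36 rose and Zfp36l2 fell in every culture, and Zfp36l1 changed by between -0.23 and -1.66 in wt and by between -1.65 and -4.39 in the knockout cultures.

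Zfp36l2 (NM_001001806, chr17:84183924-84187947), the remaining TTP relative on the list, had the deepest fall of all members. In wt BMDM it lay at 14.98, 14.96, 15.18 and 14.99 in medium and at 11.32, 9.00, 9.55 and 10.55 after LPS. MK2-/- BMDM had 15.30, 15.12 and 15.28 in medium and 8.84, 8.72, 8.58 and 9.58 after LPS, and MK2/3-/- BMDM had 14.97, 15.14, 15.24 and 15.28 in medium and 10.09, 9.37, 9.11 and 9.49 after LPS. Medium arrays lay close together in all genotypes, and every LPS array was far below them. LPS left 3.30% of the medium level in wt (log2 -4.92 ± 0.35, adjusted p = 4.45e-09, limma), 1.27% in MK2-/- (-6.30 ± 0.38, adjusted p = 5.64e-10, limma) and 2.00% in MK2/3-/- BMDM (-5.64 ± 0.35, adjusted p = 5.63e-10, limma). The genotypes after LPS differed from wt by -1.18 (95% interval -1.91 to -0.44, adjusted p = 0.441, limma) and -0.59 (-1.32 to 0.14, adjusted p = 0.497, limma), and were not called. The interaction for MK2-/- against wt was -1.38 ± 0.52 (unadjusted p = 0.0148, adjusted p = 1, limma).

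Zc3h12a (NM_153159, chr4:125118414-125127881, minus strand) encodes regnase-1, an endonuclease that cuts stem-loops of transcripts such as Il6 and its own. It lay at 7.78, 8.55, 8.27 and 8.26 in medium and at 11.84, 11.93, 12.13 and 12.24 after LPS in wt BMDM. MK2-/- BMDM had 8.16, 8.45 and 8.46 in medium and 12.49, 12.09, 12.34 and 12.31 after LPS, and MK2/3-/- BMDM had 8.39, 8.71, 8.26 and 8.22 in medium and 11.94, 11.99, 12.14 and 12.23 after LPS. The gap between medium and LPS arrays was several times wider than the spread within either. The rise was 14.2-fold in wt (log2 3.82 ± 0.16, adjusted p = 2.2e-12, limma), 15.5-fold in MK2-/- (3.95 ± 0.17, adjusted p = 5.78e-12, limma) and 12.8-fold in MK2/3-/- BMDM (3.68 ± 0.16, adjusted p = 3.81e-12, limma). LPS levels in MK2-/- and MK2/3-/- BMDM differed from wt by 0.27 (95% interval -0.06 to 0.60) and 0.04 (-0.29 to 0.37).

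Rc3h1 (NM_001024952, chr1:160906411-160974976, plus strand) encodes roquin-1, which recruits the deadenylase to stem-loops. On the probe used it lay at 8.25, 8.36, 8.68 and 8.21 in medium and 9.23, 10.06, 9.97 and 9.48 after LPS in wt, at 8.25, 8.30 and 8.59 against 9.50, 9.81, 9.37 and 9.23 in MK2-/-, and at 8.87, 9.09, 8.33 and 8.48 against 9.84, 9.98, 10.26 and 9.41 in MK2/3-/- BMDM. Medium and LPS arrays did not overlap in any genotype. It rose 2.48-fold in wt (log2 1.31 ± 0.22, adjusted p = 0.000206, limma), 2.14-fold in MK2-/- (adjusted p = 0.0021, limma) and 2.27-fold in MK2/3-/- BMDM (1.18 ± 0.22, adjusted p = 0.000391, limma). A second probe rose as well, by 0.69, 1.06 and 1.16. On that probe LPS-treated wt BMDM reached 12.27 ± 0.38, MK2-/- BMDM 12.79 ± 0.07 and MK2/3-/- BMDM 12.92 ± 0.04 (SD, n = 4 each), and the difference of 0.65 between MK2/3-/- and wt had adjusted p = 0.0495 in limma when the brightest probe of each gene was used. On the probe used here the same difference was 0.19 ± 0.22 (adjusted p = 0.784, limma).

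**Figure D3:**
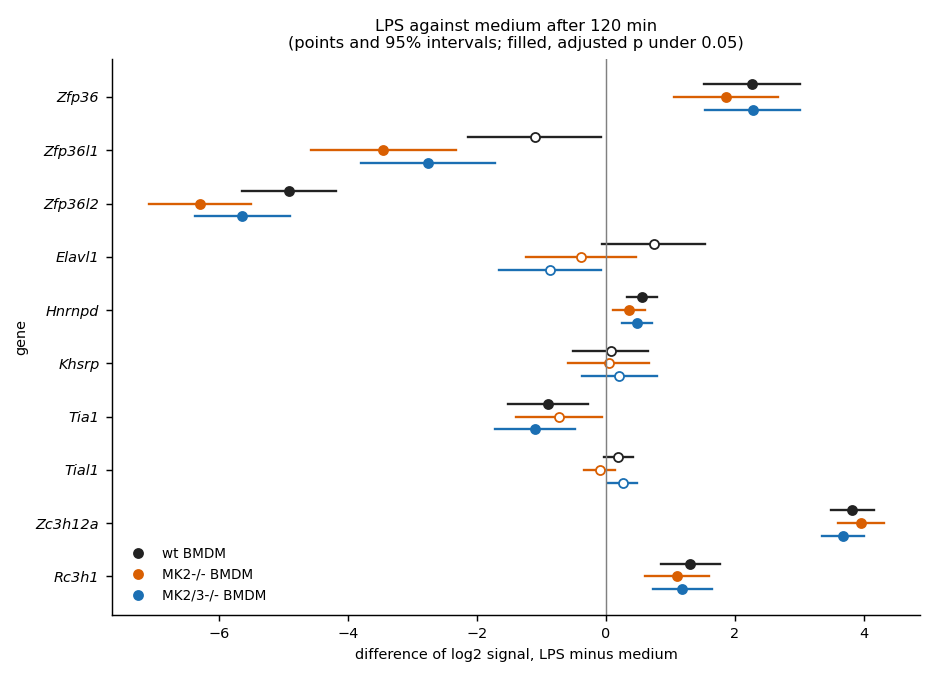
Log2 difference between LPS and medium for the 10 members in wt, MK2-/- and MK2/3-/- BMDM; points are limma estimates (filled where called) and lines are 95% intervals. Zc3h12a, Zfp36, Rc3h1 and Hnrnpd lie above 0 and Zfp36l2 below 0 in every genotype, and Zfp36l1 lies lower in the knockouts, at -3.45 and -2.76, than in wt, at -1.11.

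Elavl1 (NM_010485, chr8:4284781-4325140, minus strand) encodes HuR, the stabilizing counterpart of TTP. On the probe used it lay at 7.10, 6.50, 7.27 and 7.31 in medium and at 7.81, 7.57, 7.80 and 7.97 after LPS in wt BMDM. MK2-/- BMDM had 7.13, 6.86 and 7.63 in medium and 6.75, 6.06, 7.26 and 7.22 after LPS, and MK2/3-/- BMDM had 6.55, 6.88, 7.72 and 7.81 in medium and 5.65, 5.62, 6.84 and 7.38 after LPS. Every wt culture was higher with LPS (by 0.70, 1.06, 0.53 and 0.66), while every MK2-/- culture (-0.38, -0.80 and -0.41) and every MK2/3-/- culture (-0.90, -1.26, -0.88 and -0.43) was lower. In no genotype was the LPS difference called (0.74 ± 0.38, -0.39 ± 0.41 and -0.87 ± 0.38, adjusted p = 0.226, 0.614 and 0.107, limma). The wt difference was called with the culture number as a block (adjusted p = 0.0259, limma) and with the mean over both probes (0.59, adjusted p = 0.0408, limma). The MK2/3-/- difference was called with that block (adjusted p = 0.00722, limma), with the culture as a random block (adjusted p = 0.0356, limma), without LPS replicate 4 (-1.20, adjusted p = 0.0188, limma), without medium replicate 1 (adjusted p = 0.0486, limma) and without MK2/3-/- medium replicates 1 and 2, which stood apart (-1.39, adjusted p = 0.0287, limma). The interaction was -1.13 ± 0.56 for MK2-/- against wt (adjusted p = 1, limma) and -1.61 ± 0.54 for MK2/3-/- against wt (unadjusted p = 0.00737, adjusted p = 0.764, limma).

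All knockout arrays lay below all wt arrays for this probe after LPS, with differences of -0.97 ± 0.38 in MK2-/- (adjusted p = 0.612, limma; exact permutation p = 0.0286, the smallest that 4 against 4 arrays can give) and -1.41 ± 0.38 in MK2/3-/- BMDM (adjusted p = 0.0673, limma; exact permutation p = 0.0286). The probe was chosen for its wt induction, a rule that favours high wt LPS signals and so tilts these differences downward. Of the 25902 genes with a value on every array, 1.54% and 2.89% likewise had all knockout arrays below all wt arrays. The MK2/3-/- difference was called with the culture as a random block (adjusted p = 0.045, limma) and with the culture number as a block (adjusted p = 0.00344, limma). It was also called with probes well above background in 1 whole group (adjusted p = 0.0396, limma) and without MK2/3-/- LPS replicate 4 (-1.75, adjusted p = 0.0158, limma). The second Elavl1 probe did not share this pattern. It lay at 13.06, 13.03, 12.92 and 12.95 in medium and 13.39, 13.57, 13.46 and 13.31 after LPS in wt, at 12.95, 13.15 and 13.05 against 13.32, 13.39, 13.08 and 13.29 in MK2-/-, and at 13.14, 13.53, 12.99 and 13.22 against 13.37, 13.52, 13.68 and 13.51 in MK2/3-/- BMDM. On this brighter probe LPS raised the level by 0.44 in wt (adjusted p = 0.0112, limma), the LPS difference was also above 0 in the knockouts (0.22 and 0.30, not called), and MK2/3-/- differed from wt after LPS by 0.09 (adjusted p = 0.823, limma). Scaling to the 75th percentile in place of quantile normalization made the same rule take the second probe, with called LPS differences of 0.76, 0.55 and 0.67 (adjusted p = 0.000542, 0.0144 and 0.00128, limma), and normexp background correction did likewise (0.51, 0.36 and 0.43). The first probe kept its signs under both settings, with -0.41 and -0.31 in MK2-/- and -0.91 and -0.50 in MK2/3-/- BMDM. The sign of the Elavl1 difference in the knockouts thus differed between the probes and not between the scalings.

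**Figure D4:**
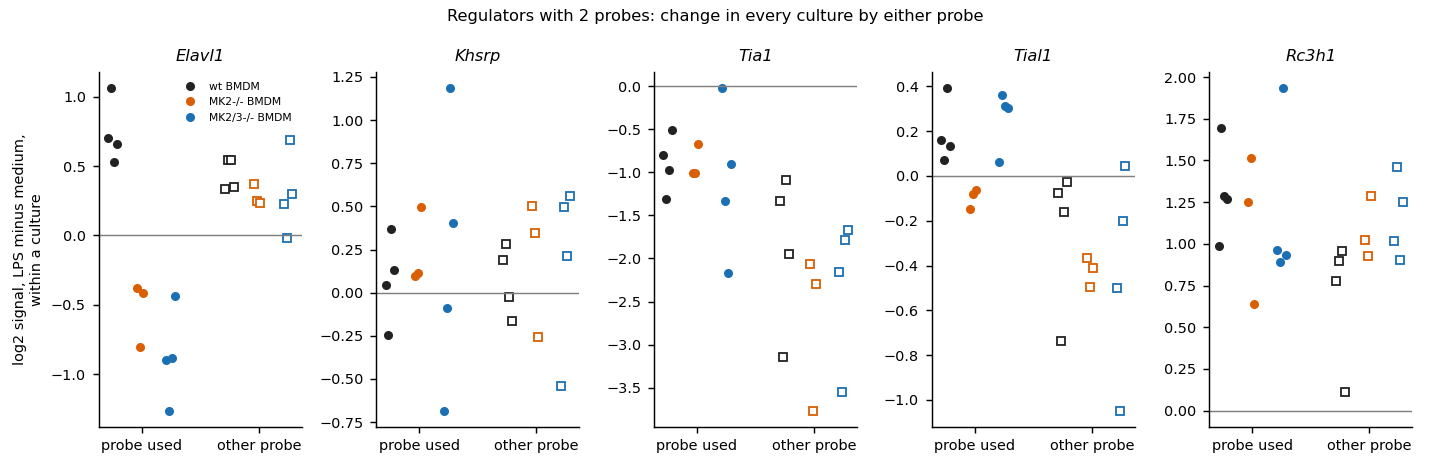
Difference of log2 signal between LPS and medium within each culture for the 5 members with 2 probes, on the probe used (filled circles) and the other probe (open squares), by genotype (black wt, orange MK2-/-, blue MK2/3-/-). For Elavl1 the knockout cultures lie between -1.26 and -0.38 on the probe used and, apart from 1 MK2/3-/- culture near 0, above 0 on the other, whereas both Rc3h1 probes lie above 0 in all cultures.

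Hnrnpd (NM_001077265, chr5:99955935-99979130, minus strand) encodes AUF1, which binds AU-rich elements and promotes decay of many of their transcripts. Its level was 12.29, 12.13, 12.07 and 12.42 in medium and 12.86, 12.82, 12.86 and 12.62 after LPS in wt, 12.23, 12.33 and 12.28 against 12.55, 12.52, 12.65 and 12.82 in MK2-/-, and 12.45, 12.51, 12.20 and 12.43 against 12.83, 12.73, 12.93 and 13.01 in MK2/3-/- BMDM. Small as they were, the shifts separated medium from LPS arrays in each genotype. All LPS arrays likewise lay above all medium arrays for 11.4%, 16.1% and 11.8% of 25902 genes, in the same order of genotypes. The rise was 1.48-fold in wt (adjusted p = 0.00103, limma), 1.28-fold in MK2-/- (adjusted p = 0.0447, limma) and 1.39-fold in MK2/3-/- BMDM (adjusted p = 0.00295, limma). The MK2-/- call was lost without LPS replicate 3 (adjusted p = 0.0764) or 4 (0.12), without any of the medium replicates 1 (0.133), 2 (0.0773) and 3 (0.104), with only the groups compared in the limma fit (0.105), and by the methods' test on log2 values (0.0534). Under scaling to the 75th percentile the log2 differences of Hnrnpd were 0.83, 0.61 and 0.77. Khsrp (NM_010613, chr17:57021049-57031507, minus strand) encodes KSRP, another decay-promoting binder. Its used probe ranged from 13.60 to 15.07 over all arrays, with LPS differences of 0.07 ± 0.28, 0.04 ± 0.30 and 0.20 ± 0.28 in wt, MK2-/- and MK2/3-/- BMDM (adjusted p = 0.934, 0.962 and 0.676, limma), and its second probe was not called either.

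Tia1 (NM_011585, chr6:86404203-86433405, plus strand) and Tial1 (NM_009383, chr7:128439772-128461726, minus strand) encode TIA-1 and TIAR, which silence translation of AU-rich transcripts and gather in stress granules. Tia1 lay at 7.65, 6.99, 7.13 and 7.22 in medium and 6.85, 5.68, 6.15 and 6.71 after LPS in wt, at 7.40, 7.10 and 7.08 against 6.39, 6.09, 6.97 and 6.41 in MK2-/-, and at 6.41, 6.66, 7.29 and 7.01 against 6.39, 5.33, 5.13 and 6.11 in MK2/3-/- BMDM. It fell in wt (log2 -0.90 ± 0.30, adjusted p = 0.0426, limma) and in MK2/3-/- BMDM (-1.11 ± 0.30, adjusted p = 0.00883, limma), and differed by -0.73 ± 0.32 in MK2-/- BMDM (adjusted p = 0.134, limma). The wt call was lost without LPS replicate 2 (adjusted p = 0.167) or 3 (0.106), without medium replicate 1 (0.127), 3 (0.0673) or 4 (0.0802), and with only the groups compared in the limma fit (0.0836), which also ended the MK2/3-/- call (0.0571), as did the methods' test on log2 values (0.123 in wt and 0.091 in MK2/3-/- BMDM). With normexp the called differences were -0.54 and -0.58, and with the mean over both probes the MK2-/- difference was -1.58 and was called (adjusted p = 0.00287, limma). The second Tia1 probe was lower after LPS in wt BMDM (5.79 ± 0.14 against 3.91 ± 0.79, SD, n = 4), where 2 of 4 LPS arrays were well above background. In the knockouts none of its LPS arrays was well above background, and the medium level was at least 3.25-fold higher in MK2-/- and at least 3.02-fold higher in MK2/3-/- BMDM, bounds computed from the lowest signal well above background on each LPS array or the probe's own where that was higher.

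Tial1 stayed in a narrow range on the probe used, from 12.49 to 12.84 in medium over all genotypes. After LPS the wt arrays gave 12.92, 12.74, 12.98 and 12.94, the MK2-/- arrays 12.61, 12.55, 12.62 and 12.68 and the MK2/3-/- arrays 12.85, 12.85, 13.14 and 13.15, so that MK2-/- lay below both other genotypes on all arrays for this probe. Of the 25902 genes with a value on every array, 1.54% had all MK2-/- arrays below all wt arrays. All MK2/3-/- arrays lay above all MK2-/- arrays for 2.07%. LPS differences of 0.19 ± 0.11, -0.10 ± 0.12 and 0.26 ± 0.11 were not called (adjusted p = 0.285, 0.673 and 0.0899, limma), although the last passed with the culture as a random block (adjusted p = 0.0382, limma). Under scaling to the 75th percentile the differences were 0.48, 0.18 and 0.56, so that MK2-/- BMDM changed sign and wt and MK2/3-/- BMDM were called (adjusted p = 0.0153 and 0.00354, limma). After LPS, MK2/3-/- exceeded MK2-/- BMDM by 0.38 ± 0.11 (adjusted p = 0.248, limma; exact permutation p = 0.0286). The second Tial1 probe gave LPS differences of -0.25, -0.30 and -0.43, none of them called. On that probe the genotypes overlapped after LPS, with 9.96 to 10.71 in wt, 9.53 to 10.48 in MK2-/- and 10.01 to 10.86 in MK2/3-/- BMDM.

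No member passed the threshold in a comparison between genotypes. After LPS, limma called 0 of 10 members for MK2-/- against wt (0.0308% of all genes called), for MK2/3-/- against wt (1.64%) and for the comparison of both knockouts (0.161%). An unadjusted p under 0.05 was reached by 4, 2 and 3 members, beside 7.5%, 13.6% and 7.91% of all genes, and the methods' t-test with adjustment called 0 in each. The median log2 difference of the members was -0.24, 0.00 and 0.31, against 0.01, 0.01 and -0.01 over all genes. In medium, limma called 0 of 10 members in every genotype comparison, beside 0.00769% of all genes for MK2-/- against wt, 0.0769% for MK2/3-/- against wt and 0.0461% for MK2/3-/- against MK2-/- BMDM, and no member had an unadjusted p under 0.05. These differences in medium ran from -0.40 for Tia1 to 0.32 for Rc3h1, both MK2/3-/- against wt. The LPS response did not differ at the threshold for any member either, beside 0.00384%, 0.0115% and 0% of all genes in the same order of genotypes, with 2, 2 and 1 members at an unadjusted p under 0.05, which 1.91%, 4.54% and 2.88% of all genes reached.

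**Figure D5:**
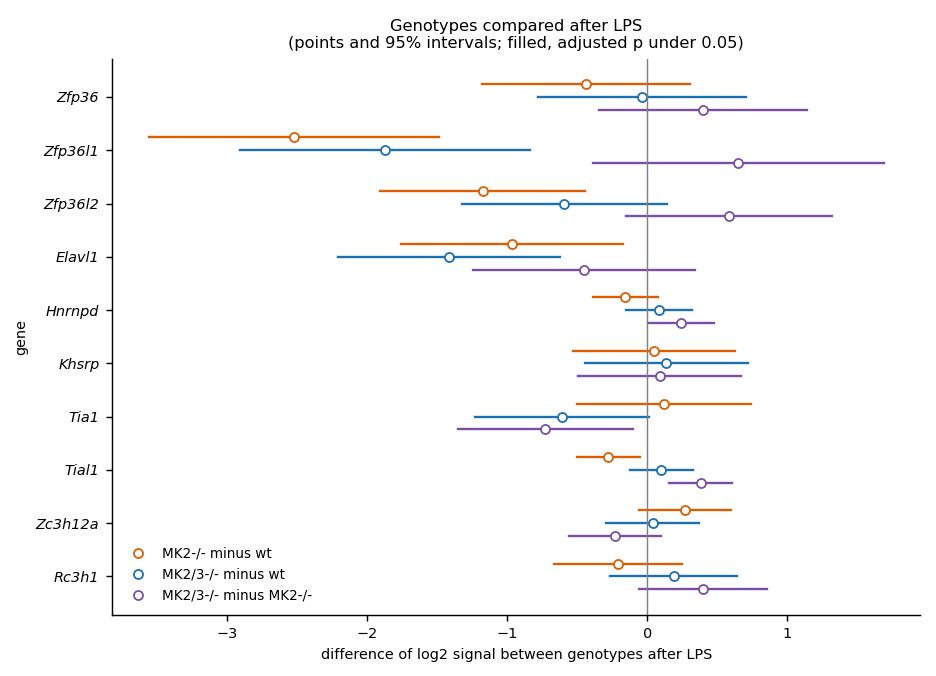
Log2 difference between genotypes after LPS for the 10 members; points are limma estimates (all open, as none was called) and lines are 95% intervals. For Zfp36l1 (-2.52 and -1.87) and Elavl1 (-0.97 and -1.41) the intervals of both knockouts against wt lie below 0, and no member passed the adjustment over all genes.

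The members act through partners and enzymes, whose transcripts were read from lists set by function. Of all genes, 8.26%, 8.48% and 11.9% were called higher after LPS in wt, MK2-/- and MK2/3-/- BMDM. Called lower were 8.89%, 10.1% and 12.9% (medians over all genes 0.01, -0.01 and -0.02). Of 35 other binders of AU-rich or 3′ end sequences, 10 were higher and 1 lower after LPS in wt, 6 and 1 in MK2-/-, and 9 and 2 in MK2/3-/- BMDM (medians 0.24, 0.25 and 0.21). Arid5a, which protects Il6 from regnase-1, rose on the log2 scale by 2.75 ± 0.51, 2.70 ± 0.55 and 3.98 ± 0.51 in the same order of genotypes. Among 9 relatives and regulators of regnase and roquin, 6, 6 and 7 were higher and 1 each lower (medians 1.11, 1.18 and 0.97). Malt1, the protease that cleaves regnase-1, rose by 3.56, 3.69 and 3.76, and Zc3h12c, a further regnase, by 3.13, 2.85 and 3.09. The p38 pathway and TTP partners had 5, 6 and 6 of 19 higher and 1, 1 and 2 lower (medians 0.17, 0.22 and 0.22), among them Dusp1, the phosphatase of p38, with 2.58, 2.17 and 2.36, and Mapkapk2 with 2.55, 3.05 and 3.04. For Mapkapk2 the knockout values are changes in the signal that remained of the targeted gene.

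The decay enzymes were read in the same way, beside 8.26%, 8.48% and 11.9% of all genes higher and 8.89%, 10.1% and 12.9% lower. Several of the counts below lie near these shares. Of 19 deadenylation genes 1 was higher in each genotype and 3, 5 and 6 were lower (medians -0.18, -0.16 and -0.02). Tob1, an adaptor of the deadenylase, fell, with log2 differences of -1.45, -1.45 and -1.49 in wt, MK2-/- and MK2/3-/- BMDM, as did Cnot8, a deadenylase subunit, with -0.77, -1.44 and -1.44. Cnot7, on the same list, rose by 0.83 in wt and 1.08 in MK2/3-/- BMDM. Of 17 decapping genes 3, 3 and 6 were higher and 2, 2 and 4 lower (medians 0.05, 0.09 and -0.17), with Dcp2, the decapping enzyme, up by 1.85, 2.15 and 2.28 and Dcp1b down with -1.13, -1.17 and -1.40. Of 17 exosome genes 2, 1 and 3 were higher and 0, 4 and 4 lower (medians 0.00, 0.07 and -0.13). After LPS the decay genes called between MK2/3-/- and wt BMDM were Upf1, a helicase that works with regnase-1, at 0.61 (adjusted p = 0.0208, limma), Patl1 at 0.42 (adjusted p = 0.0394, limma), Cnot11 at -0.43 (adjusted p = 0.0495, limma), Exosc1 at -0.86 (adjusted p = 0.0321, limma) and Exosc6 at -0.80 (adjusted p = 0.049, limma). Between MK2-/- and wt after LPS, limma called none of the genes of these lists but Mapkapk2 itself. Of all genes, 0.0308% were called in that comparison and 1.64% between MK2/3-/- and wt BMDM after LPS.

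Transcripts known as TTP targets, a list of 19 that holds Zfp36 itself, were higher after LPS for 17 genes in wt BMDM, for 17 in MK2-/- BMDM and for 18 in MK2/3-/- BMDM, with none lower. Of all genes, 8.26%, 8.48% and 11.9% were higher in the same order. Il23a and Csf2 had no medium array well above background in any genotype, and with both set to their lower bounds the list medians were 6.07, 5.41 and 4.81 on the log2 scale (6.76, 6.92 and 5.03 from the measured signals). Tnf is the first target described for TTP and also a target of roquin, and it rose by 8.02 ± 0.37, 7.51 ± 0.40 and 6.98 ± 0.37 on the log2 scale. Il6 rose by 11.7, 11.5 and 11.2, although its medium signal stood well above background only on 2 of 4 arrays in wt, 2 of 3 in MK2-/- and 3 of 4 in MK2/3-/- BMDM. Il23a was at least 35.1-, 27.7- and 8.44-fold higher. After LPS, 1.64% of all genes were called between MK2/3-/- and wt BMDM in either direction. Of the 19 targets, 4 were lower in MK2/3-/- than in wt BMDM and 1 was higher, with a list median of -0.29. The lower ones were Il10 at -3.22 ± 0.47 (adjusted p = 0.00158, limma), Il2 at -3.06 ± 0.63 (adjusted p = 0.0192, limma), Cxcl2 at -2.12 ± 0.45 (adjusted p = 0.0224, limma) and Il23a at -1.78 ± 0.36 (adjusted p = 0.015, limma), and Plk2, a kinase, was higher by 1.63 ± 0.30 (adjusted p = 0.00872, limma). Between MK2-/- and wt, limma called 0 of 19 (list median -0.14), and between MK2/3-/- and MK2-/- it called Il23a at -1.86 (adjusted p = 0.0408). Some of these targets were picked by the study on these same arrays and are no independent evidence of direction. Of 12 measured targets of regnase-1 or roquin, 9 were higher in each genotype (medians 4.30, 4.30 and 3.39), and Il2 was the gene called after LPS in MK2/3-/- against wt BMDM.

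Over the 23 arrays, genes with patterns most like those of 4 members were looked up among 12570 genes well above background on every array. These r values mostly follow the shift between medium and LPS, which the arrays share, and are given as a description. For Zc3h12a the closest were Plek (r = 0.992), Cflar (r = 0.992) and Ccl3 (r = 0.992), and for Zfp36 they were Smcr8 (r = 0.963), Map3k8 (r = 0.963) and Slfn8 (r = 0.960). Zfp36l2 was most like Mrm1 (r = 0.988), Bmf (r = 0.987) and Mlst8 (r = 0.982), and Zfp36l1 most like Kctd13 (r = 0.947), Surf2 (r = 0.944) and Mtfp1 (r = 0.929). Among the members, Zfp36l1 and Zfp36l2 had r = 0.830, Zfp36 and Zc3h12a r = 0.903, and Zfp36l2 and Zc3h12a r = -0.981.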

How the data were processed

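RNA of 23 BMDM samples was labelled with Cy3 and hybridized to Agilent SurePrint G3 Mouse arrays. The deposited spot intensity, made by the authors with Feature Extraction 11.0.1.1, is linear, background-subtracted and detrended within the array (on 2 arrays, MK2-/- LPS replicate 1 and MK2/3-/- medium replicate 2, no gradient was fitted). A deposited table holds log2 values that the authors quantile normalized and centred on the median of each probe, and served as an alternative.

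Control spots were left out, spots with a non-uniformity or population outlier flag became missing (258 probe values), intensities were log2 transformed, replicate spots averaged and arrays quantile normalized. Of 55681 probes, 32885 carried a RefSeq or GenBank accession, and 27509 of 29150 RefSeq probes were named with the RefSeq table of GRCm38.p6. A gene with several probes took that with the strongest LPS induction in wt, as in the study's methods. One linear model with 6 groups was fitted to all arrays (limma 3.58.1, R 4.3.3). Single differences were also tested by a two-sided exact permutation test, whose smallest p here is 0.0286. Tests across genes were first tested on simulated data. Figures were drawn with matplotlib 3.10.9 in Python 3.11.15. The files give no gMeanSignal, so the normexp alternative used the median signal with an offset of 50.

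Within a genotype, medium and LPS arrays come from the same cultures per the file names, with MK2-/- medium replicate 3 belonging to culture 4. After removal of group means the 11 pairs correlated with r from 0.0657 to 0.566 (median 0.256) over 25902 genes and from 0.359 to 0.776 over 12570 genes that were well above background everywhere. As 10 of 11 pairs in the first set exceeded 0.1, fits with and without a culture block are both given. The methods name 4 independent experiments per time point.

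The members and all lists were chosen with earlier results of these data known. Named are all members, Mapkapk2 and Mapkapk3, from each list genes among the 3 with the largest called difference per comparison and any gene called between genotypes, and the 3 genes most like Zfp36, Zfp36l1, Zfp36l2 and Zc3h12a. As array signals are continuous, the number of arrays limits the precision.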

Additional observations from a re-analysis of the deposited data

Results flagged for a closer look

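In 7 of 75 sets of arrays (a probe within a group of 4), 1 array lay far from the rest, and chance alone marks about 1 in 20 such sets. The measure is the gap to the nearest other array divided by the range of the group, set against Dixon's critical value. For Zfp36 it was 0.840 in MK2/3-/- LPS (replicate 4 at 10.42, nearest 11.35). For Zfp36l1 it was 0.895 in wt medium (replicate 1 at 13.30, nearest 13.88), 0.832 in MK2/3-/- medium (replicate 1 at 13.18, nearest 13.63) and 0.882 in MK2/3-/- LPS (replicate 4 at 11.98, nearest 10.51). For Zfp36l2 it was 0.883 in wt medium (replicate 3 at 15.18, nearest 14.99). The second Tia1 probe gave 0.851 in MK2/3-/- LPS (replicate 2 at 2.13, nearest 3.96, none well above background), and Tial1 gave 0.839 in MK2/3-/- medium (replicate 2 at 12.49, nearest 12.79, an array that stood apart by its detection share).

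For 2 members every culture of a genotype moved one way with LPS and every culture of another the opposite way. The share of all genes that did so is not given here. Both members have 2 probes, and the probe used was chosen for its wt induction. The used Elavl1 probe rose in all wt and fell in all knockout cultures, with an interaction of -1.13 for MK2-/- against wt and -1.61 for MK2/3-/- against wt, while the second probe rose in all wt and MK2-/- cultures and in 3 of 4 MK2/3-/- cultures. The used Tial1 probe moved oppositely in MK2-/- and wt cultures (interaction -0.29; under scaling to the 75th percentile the mean change in MK2-/- BMDM was above 0) and in MK2/3-/- and MK2-/- cultures (0.36). None of these interactions passed the adjustment in limma (adjusted p = 1, 0.764, 1 and 1).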

How the results depend on the processing

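The LPS counts of called members (6, 6 and 7 of 10) stayed within 1.5 times under all alternatives, and no member called in the main fit changed direction. After LPS, the count for MK2-/- against wt went from 0 to 1 with the replicate block of culture numbers across genotypes (Zfp36l1) and to 4 at an unadjusted p under 0.05, and was 0 to 1 when single arrays were left out. For MK2/3-/- against wt it went from 0 to 1 with the brightest probe of each gene (Rc3h1), to 2 with probes well above background in 1 whole group, to 1 with the replicate block of culture as a random effect (Elavl1), to 2 with the replicate block of culture numbers (Zfp36l1 and Elavl1) and to 2 at an unadjusted p, and was 0 to 2 when single arrays were left out. At an unadjusted p under 0.05 MK2/3-/- against MK2-/- after LPS gave 3, and the interactions gave 2, 2 and 1. At that threshold the share of all genes was 7.5%, 13.6% and 7.91% for the comparisons after LPS and 1.91%, 4.54% and 2.88% for the interactions. Culture numbers shared between genotypes stand for different animals. In the comparisons of LPS against medium, blocks added Elavl1 and Tial1 to the calls, took none away and changed no other call of a member. Between genotypes they changed the calls named above. Without both MK2/3-/- medium arrays that stood apart by their detection share, an alternative chosen after seeing the data, 8 members in place of 7 were called for LPS in MK2/3-/- BMDM. Scaling to the 75th percentile moved the median of all genes in the LPS comparisons to 0.15, 0.20 and 0.06, and to 0.15 for MK2/3-/- against wt after LPS, without changing the direction of a called member. With 3 or 4 arrays per group, differences of members with a wide spread such as Zfp36l1 could be bounded only loosely, and genotype cannot be told apart from slide.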
